A study of Mus musculus with 6 samples.

Results

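Mouse chromosome 11 was examined in a genome-wide table of CpG methylation from embryonic stem cells sorted by cell cycle phase. Its members were all windows that the table places on chromosome 11, which came to 19170 of 359192 windows, or 5.34%. The chromosome was singled out by a measured value, since among the 19 autosomes it had the smallest mean difference in methylation between the phases. That difference, and every other G1 minus G2/M value on chromosome 11, is therefore a description. Counts from a fit over all windows of the table are printed beside their background, with nothing read from them. The cells were E14TG2a mouse embryonic stem cells (mESCs) of strain 129/Ola, at passages 5 to 28 and grown on gelatin in serum with leukaemia inhibitory factor (LIF). All cells had been labelled with 5-ethynyl-deoxyuridine (EdU), a thymidine analogue taken up by DNA in S phase, and were fixed in ethanol. They were then sorted by EdU signal and by DNA content from propidium iodide into a G1 group and a G2/M group, with 3 libraries in each. No genotype or drug treatment separated the groups, and a sorted group holds cells within a gate rather than at 1 time point. Methylation was read by EM-seq, an enzymatic conversion that leaves methylated and hydroxymethylated cytosines as C, so the percentages cover both forms. No gene expression was measured, so the identity of the cells was not checked against marker genes here.

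In mammals most CpG dinucleotides carry methyl groups on both strands. Replication pairs a methylated parental strand with an unmethylated new strand, and DNMT1, recruited by UHRF1, restores the mark on the new strand. Promoters rich in CpG, the CpG islands, are as a rule kept free of methylation, while gene bodies and the space between genes are methylated. mESCs in serum hold high methylation over most of the genome.

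The 6 promoters shown here are those on which the descriptions below turn. Pttg1 and Adam19 start in the windows with the largest phase differences in each direction among windows with non-overlapping groups. Brca1 stands for promoters near 0% methylation, Zrsr1 for an imprinted gene, and Myh2 and Olfr1387 for highly methylated promoters of genes of other tissues. Each run spans 250 bases before to 50 bases after the RefSeq start of the gene in GRCm38.p6, is written 5′ to 3′ on the strand of the gene, and has its CG dinucleotides in capitals.
Pttg1 (chr11:43425932-43426231, minus strand, 20 CpGs): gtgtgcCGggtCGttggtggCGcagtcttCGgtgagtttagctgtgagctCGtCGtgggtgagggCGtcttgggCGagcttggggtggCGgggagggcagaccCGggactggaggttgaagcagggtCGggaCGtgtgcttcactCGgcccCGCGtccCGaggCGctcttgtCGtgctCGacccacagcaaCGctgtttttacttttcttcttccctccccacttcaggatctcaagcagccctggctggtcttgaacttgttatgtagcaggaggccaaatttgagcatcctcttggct
Adam19 (chr11:46055734-46056033, plus strand, 11 CpGs): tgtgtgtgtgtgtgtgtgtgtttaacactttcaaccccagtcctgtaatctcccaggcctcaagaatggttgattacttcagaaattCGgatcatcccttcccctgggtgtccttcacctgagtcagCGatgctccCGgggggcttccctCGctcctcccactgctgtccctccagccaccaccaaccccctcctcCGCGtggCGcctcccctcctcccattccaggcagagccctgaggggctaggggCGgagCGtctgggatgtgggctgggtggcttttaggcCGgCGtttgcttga
Brca1 (chr11:101551906-101552205, minus strand, 19 CpGs): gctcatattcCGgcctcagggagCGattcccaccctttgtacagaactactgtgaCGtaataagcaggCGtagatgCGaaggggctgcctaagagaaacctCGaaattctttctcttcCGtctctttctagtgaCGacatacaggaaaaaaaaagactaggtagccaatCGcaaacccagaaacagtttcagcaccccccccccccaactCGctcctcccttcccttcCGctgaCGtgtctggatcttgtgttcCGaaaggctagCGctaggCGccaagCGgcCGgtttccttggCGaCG
Zrsr1 (chr11:22971755-22972054, plus strand, 10 CpGs): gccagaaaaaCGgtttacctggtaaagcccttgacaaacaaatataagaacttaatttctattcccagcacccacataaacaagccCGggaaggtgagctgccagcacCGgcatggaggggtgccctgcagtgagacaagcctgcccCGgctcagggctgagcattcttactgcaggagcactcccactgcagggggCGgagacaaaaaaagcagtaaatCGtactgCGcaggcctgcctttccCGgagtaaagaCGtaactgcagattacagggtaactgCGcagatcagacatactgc
Myh2 (chr11:67170777-67171076, plus strand, 9 CpGs): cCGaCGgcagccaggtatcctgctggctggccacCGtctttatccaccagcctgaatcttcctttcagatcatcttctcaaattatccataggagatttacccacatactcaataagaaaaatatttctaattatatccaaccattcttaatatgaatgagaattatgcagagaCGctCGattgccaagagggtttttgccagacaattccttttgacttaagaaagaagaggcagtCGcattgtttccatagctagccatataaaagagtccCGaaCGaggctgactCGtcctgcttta
Olfr1387 (chr11:49459431-49459730, plus strand, 1 CpG): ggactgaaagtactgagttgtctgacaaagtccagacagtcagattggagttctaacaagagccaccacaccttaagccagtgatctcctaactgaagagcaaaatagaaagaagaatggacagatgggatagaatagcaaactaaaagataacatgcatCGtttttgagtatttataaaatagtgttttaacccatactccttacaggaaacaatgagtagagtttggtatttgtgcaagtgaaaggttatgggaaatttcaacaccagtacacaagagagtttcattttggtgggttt
The Brca1 run holds 19 CpGs in 300 bases and its window averaged 0.231%, whereas the Olfr1387 run holds 1 and its window averaged 79.8%. The Zrsr1 and Myh2 runs hold nearly equal numbers of CpGs, 10 and 9, and their windows averaged 30.9% and 78.9%. A window is far longer than the run shown, from 949 bp for Brca1 to 7348 bp for Olfr1387, so its value is not that of the promoter bases alone.

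The windows of chromosome 11 ran from position 3100031 to 121973689 of GRCm38 and covered 111.6 of 122.1 Mb, or 91.4%. They were named as 100-CpG windows, by a number of CpGs rather than a fixed length, so a short window marks CpG-dense sequence. Their median length was 4937 bp (interquartile range 3667 to 7019 bp), against 5744 bp on the other 18 autosomes. They held a median of 51 CpG dinucleotides in the reference sequence, counted once for both strands, and most held 49 to 61. In all, 7 gaps over 100 kb lay between windows, 4.6 Mb together, and 10 windows were longer than 60 kb. Those 10 held 70 to 5514 CpGs, and a shorter one of 43915 bp at Olfr323 held 482. A long window is therefore not always CpG-poor. The table gives no read depth, so the counting error of a single percentage is unknown. Of the 19170 windows, 460 were listed at 0% in at least 1 library, 107 at 0% in all 6, and 5 at 100% in any library.

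The G1 libraries averaged 60.2% in replicate 1, 58.1% in replicate 2 and 66.7% in replicate 3 over the windows of chromosome 11, which gave 61.7% ± 4.48 (SD, n = 3). Those of G2/M averaged 59.6%, 58.1% and 66.3%, or 61.3% ± 4.38 (SD, n = 3). Replicate 3 was the highest library in both phases, and the groups overlapped, with a range between replicates of 8.59 percentage points in G1 and 8.24 in G2/M. Same-numbered libraries were subtracted as matched pairs. The matched G1 minus G2/M differences were 0.565, 0.0368 and 0.389 percentage points, with a mean of 0.330 ± 0.269 (SD, n = 3). This mean was 0.550 for the median over windows and 0.549 with windows weighted by length. Over all windows of the other 18 autosomes they were 1.29, 0.644 and 0.691, with a mean of 0.874. Chromosome 11 was the lowest of the 19 autosomes in each of the 3 pairs. The next autosomes were 7, at a mean of 0.625, then 19 at 0.638 and 5 at 0.642, and the highest was chromosome 3 at 1.24. The values carry no correction between libraries. After the autosomal median of each library was subtracted, which was 1.04 percentage points higher in G1 on average, the mean difference of chromosome 11 changed sign to -0.706, and it lay below 0 in 3 of 3 pairs.

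**Figure D1:**
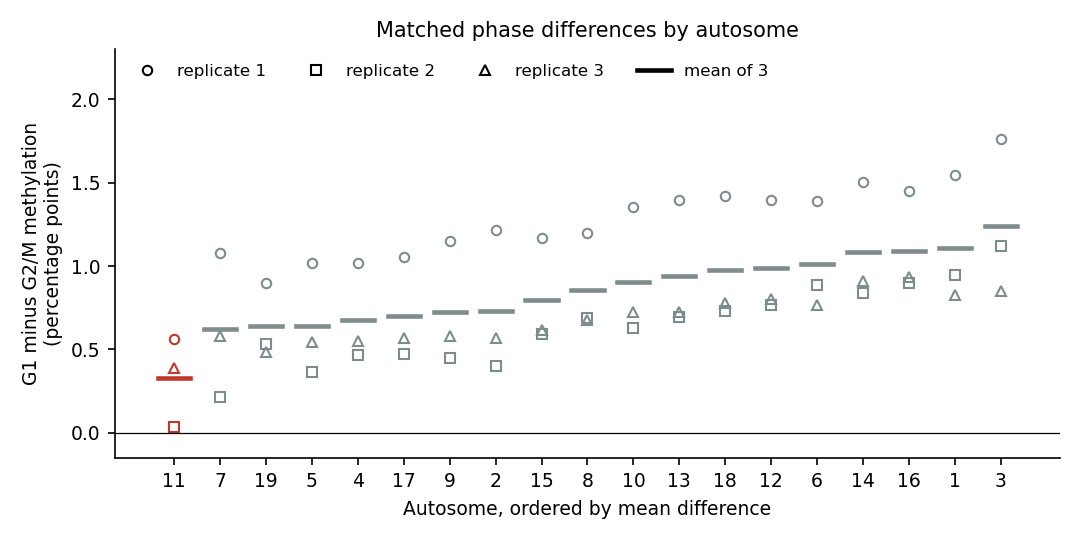
Matched G1 minus G2/M difference in mean CpG methylation (percentage points) for each of the 19 autosomes, ordered by the mean. Open symbols are the 3 replicate numbers and bars their mean, and chromosome 11, in red, is the lowest in each pair with a mean of 0.330.

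Chromosome 11 also stood at the end of the order in sequence content, which the choice of the chromosome did not use. It had the most CpGs per kb of the 19 autosomes, 9.80 against 7.62 to 9.59 on the others, and the highest GC content, 43.8% against 40.5% to 43.1%. With 13.8 protein-coding genes per Mb it was the second most gene-dense autosome after chromosome 7, which had 14.3. Windows under 4 kb made up 31.8% of its windows, the largest share of any autosome, against 16.6% to 30.7% on the others. Windows of 10 kb or more made up 9.85%, the smallest share, against 10.3% to 22.6%. Across the 19 autosomes the mean phase difference went with the median window length (Pearson r = 0.888, Spearman rho = 0.853) and against CpGs per kb (r = -0.909, rho = -0.891), as a description over chromosomes that share the same 6 libraries. With 5 classes of window length weighted alike on every autosome, the difference of chromosome 11 was 0.483 and the other 18 lay between 0.632 and 1.13.

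The level of methylation, averaged over both phases, was tested, since the choice did not use it directly. The test is not independent of the choice, because chromosomes 11 and 7, the lowest in phase difference, were also the lowest in level. Chromosome 11 averaged 61.5% over the 6 libraries, the second lowest autosome after chromosome 7 at 61.2%. It lay below the other 18 autosomes in 6 of 6 libraries, at -2.97 to -2.11 percentage points and a mean difference of -2.46 ± 0.337 (SD over 6 libraries). The two-sided exact sign-flip test over libraries gave p = 0.03125, which is the smallest p that 6 libraries allow, and 0.03125 after Benjamini-Hochberg adjustment over 6 tests. The gap was smaller in other averages, at -0.956 for the median over windows, -0.912 with windows weighted by length, and -1.14 with length classes weighted as on the other autosomes. With the 2 libraries of a number averaged there are 3 values, and the exact test then cannot go below 0.25. Against chromosome 7 the difference was 0.298 ± 0.308, higher in 5 of 6 libraries, and the exact sign-flip test gave p = 0.0938, so the order of the lowest pair was not resolved. Part of the lower level lay in poorly methylated windows: 5.52% of chromosome 11 windows averaged under 20% and 12.6% averaged 20% to 50%, against 3.51% and 8.92% on the other autosomes. Windows from 50% to 80% made up 78.5% against 83.6%.

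By window length, the gap in level was widest at 2 to 4 kb and had the opposite sign at 10 kb or more. Windows under 2 kb averaged 16.1% on chromosome 11, and those of 2 to 4, 4 to 6, 6 to 10, and 10 kb or more averaged 57.5%, 65.7%, 67.5% and 64.6%. Against the same classes on the other autosomes the first 4 classes differed by -1.39, -3.01, -1.70 and -0.559 percentage points, each below in 6 of 6 libraries. Windows of 10 kb or more were higher on chromosome 11, by 1.10 ± 0.278 (SD) and in 6 of 6 libraries. Each of the 5 classes gave the smallest possible p of the exact sign-flip test, 0.03125, before and after adjustment. In its long windows chromosome 11 ranked 16 of 19 from the bottom, against 2 of 19 in windows of 2 to 4 kb. In windows under 2 kb chromosome 11 ranked 8 of 19, and in those of 6 to 10 kb 3 of 19. The 4 classes under 10 kb were thus below the mean level of the other autosomes. Only the longest class, 9.85% of the windows, was above it. Within chromosome 11, windows of 10 kb or more exceeded windows under 4 kb by 14.4, 13.3 and 14.05 percentage points in the G1 libraries and by 12.6, 11.3 and 12.8 in the G2/M libraries. The mean of 13.1 ± 1.13 (SD over 6 libraries) gave p = 0.03125 in the exact sign-flip test, and it was 6.83 for the median over windows and 6.31 over windows from 20% to 80%. The same contrast on the other autosomes was 8.74 ± 1.14, smaller in each of the 6 libraries, and the difference between the contrasts was not tested. That contrast also gave p = 0.03125 in the exact sign-flip test, so this p says nothing particular to chromosome 11.

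The phase difference of chromosome 11 also moved with window length. It was 0.0712 ± 0.392 (SD of 3 matched differences) in windows under 2 kb and -0.197 ± 0.324 in windows of 2 to 4 kb, where 1 of 3 pairs lay above 0. In windows of 4 to 6 kb it was 0.0741 ± 0.356. It reached 0.816 ± 0.163 in windows of 6 to 10 kb and 1.56 ± 0.362 in windows of 10 kb or more, and both had 3 of 3 pairs above 0. With libraries centred on their autosomal medians, only the longest class stayed above 0, at 0.521 with 3 of 3 pairs, and the class of 6 to 10 kb lay at -0.220 with 0 of 3 pairs above 0. The other autosomes ran from 0.142 in the shortest class over 0.235, 0.475 and 1.17 to 1.96 in the longest. Chromosome 11 was the lowest of 19 autosomes in the 3 middle classes, the second lowest in the longest and the sixth lowest in the shortest. By level, windows of 20% to 50% had a difference of -0.586 ± 0.542 with 0 of 3 pairs above 0, against 0.190 elsewhere. Windows of 50% to 80%, the bulk at 15057, had 0.464 ± 0.274 against 0.981, and windows under 20% had 0.144 ± 0.133 against 0.0435. Windows of 80% or more had 0.939 ± 0.830 against 0.903 elsewhere, so the most methylated windows of chromosome 11 and of the other autosomes had nearly the same mean.

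**Figure D2:**
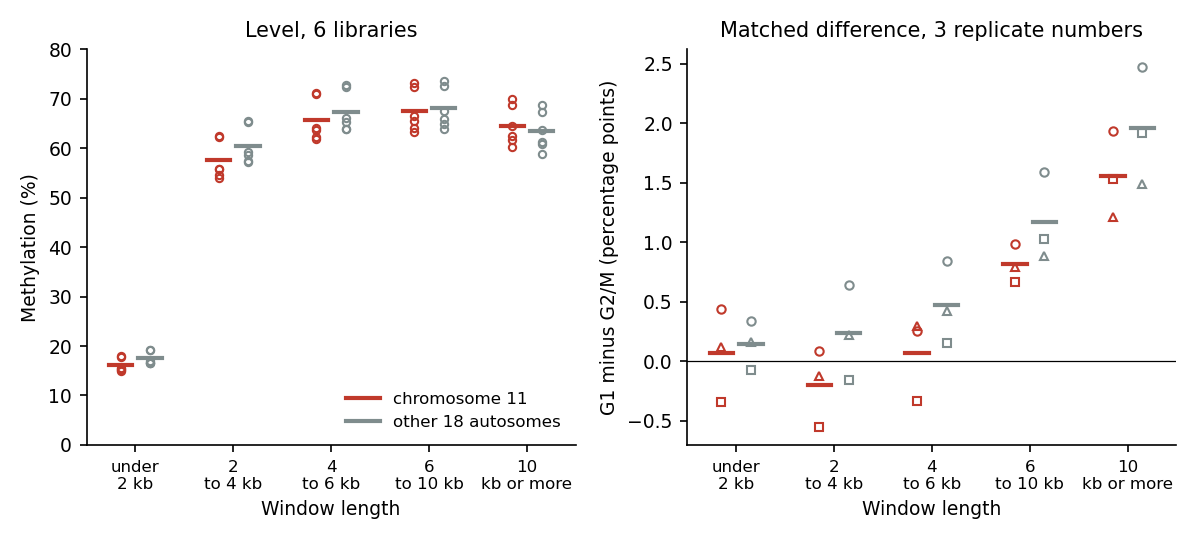
Mean methylation (left, %, 6 libraries as open circles) and matched G1 minus G2/M difference (right, percentage points, 3 replicate numbers as open symbols) in 5 classes of window length, with bars for the means. On chromosome 11 (red) the level is below the other autosomes (grey) in the 4 shorter classes and above in the longest, and the mean difference goes from 0.0712 to 1.56.

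The level also differed between promoters, genes and the space between them. Windows that hold the start of a protein-coding gene, 1007 or 5.25% of the chromosome, averaged 38.0%. Other windows centred in a gene, 52.2% of all, averaged 61.9%, and intergenic windows, 42.6%, averaged 63.9%. The matched differences of promoter windows were 0.135, -0.864 and -0.355, a mean of -0.361 against 0.490 on the other autosomes. Genic windows had a mean of 0.166 against 0.621, and intergenic windows 0.616 against 1.14. The mean was lower on chromosome 11 in all 3 classes, as a description of the contrast that chose the chromosome. Intergenic windows of chromosome 11 were longer than promoter windows, with medians of 5736 and 3363 bp.

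Along the chromosome, windows were averaged in bins of 1 Mb, of which 114 held 50 or more windows. Bin means of the level ran from 45.6% to 72.1% around a median of 63.4%. Bin means of the phase difference ran from -1.44 to 3.57 percentage points around a median of 0.307, against a median of 1.07 over the bins of the other autosomes. G1 was above G2/M in 3 of 3 pairs in 50 of the 114 bins, or 43.9%, where the share over all autosomal bins was 61.4%. G1 was below in 3 of 3 pairs in 16 bins, or 14%, against 4.69% of all autosomal bins. The remaining 48 bins had pairs of both signs. Since the chromosome was chosen by this contrast, nothing is read from these shares, and with libraries centred on their autosomal medians they became 21.1% above and 47.4% below. Bins with all pairs above 0 had a median of 4 gene starts, a median window length of 6411 bp and a median level of 66%. Those with all pairs below 0 had 22.5 gene starts, 4236 bp and 57.2%.

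**Figure D3:**
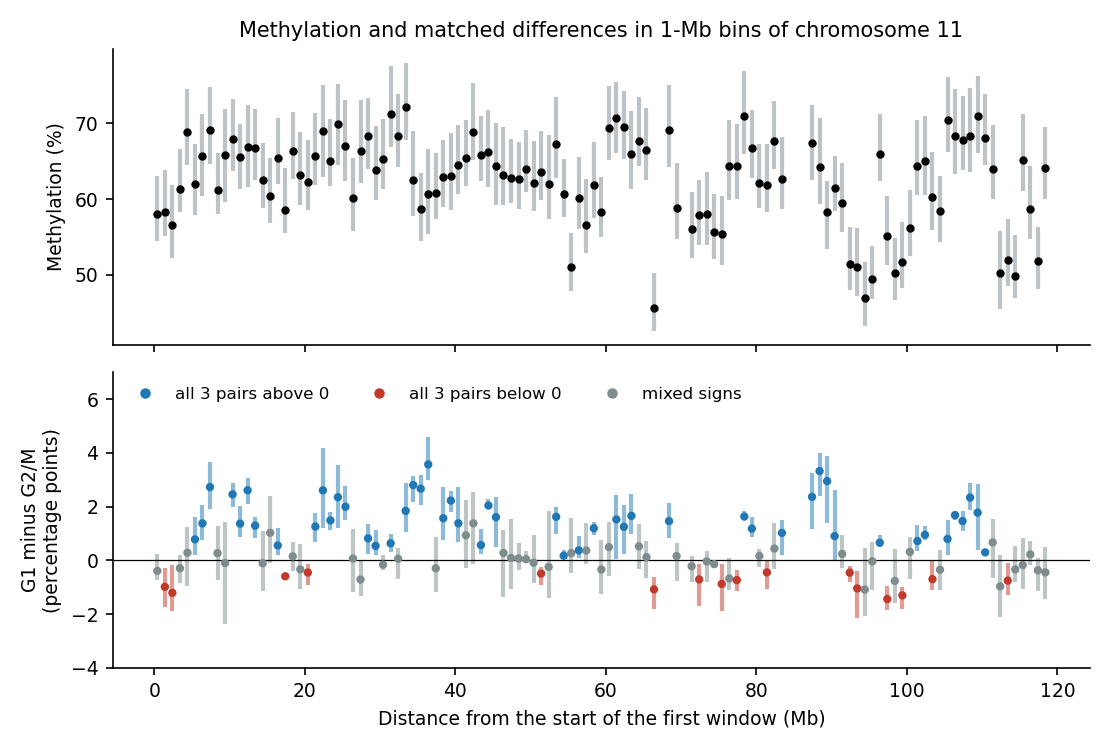
Mean methylation (top, %, with a bar from the lowest to the highest of 6 libraries) and matched G1 minus G2/M difference (bottom, percentage points, with a bar from the lowest to the highest of 3 pairs) in 114 bins of 1 Mb, against the distance from the first window of chromosome 11. Bins with all 3 pairs above 0 (blue, 50 bins) form runs, while the 16 bins with all pairs below 0 (red) are scattered singly or in neighbouring pairs. The values are uncentred, and 61.4% of all autosomal bins had all pairs above 0.

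The bin with the largest difference, 39 to 40 Mb, holds the start of no protein-coding gene. Its G1 libraries stood at 62.3%, 58.5% and 66.6% and its G2/M libraries at 57.7%, 55.4% and 63.5%, with matched differences of 4.58, 3.01 and 3.12. It was followed by 91 to 92 Mb, with a mean of 3.32 and 1 gene start, that of Kif2b, a kinesin that acts on spindle microtubules. The third, 92 to 93 Mb, had a mean of 2.95 and no gene start. Median window lengths in these bins were 11539, 9602 and 12120 bp, well above the 4937 bp of the chromosome. In the lowest bin, 100 to 101 Mb, G1 stood at 52.5%, 51.3% and 59.4% and G2/M at 54.0%, 53.1% and 60.4%, with matched differences of -1.55, -1.83 and -0.939. It holds 41 gene starts, among them keratin genes, Stat5a, Stat5b and Stat3. The others were 102 to 103 Mb, with a mean of -1.30 and 35 gene starts, among them Ubtf, a factor for ribosomal RNA transcription, and Gfap, an intermediate filament of astrocytes, and 5 to 6 Mb, with a mean of -1.21 and 20 gene starts, among them Ewsr1 and Xbp1.

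In 9 stretches, 3 or more neighbouring bins had all pairs above 0, and no such stretch had all pairs below. Stretches were not counted on the other autosomes, and 61.4% of all autosomal bins had all pairs above 0. They were picked by the sign of the contrast that chose the chromosome, so their means are descriptions. The values are uncentred. After centring on autosomal medians, 21.1% of the bins of chromosome 11 had all pairs above 0 and 47.4% all below. The stretch with the highest mean, 36 to 40 Mb, averaged 2.55 ± 0.683 (SD of 3 matched differences) and holds the start of 1 protein-coding gene, Tenm2, a cell adhesion protein of neurons. The stretch from 90 to 94 Mb averaged 2.27 ± 0.982 and holds 16 gene starts, among them Hlf, Car10 and Nme1. The stretch from 24 to 29 Mb averaged 1.88 and holds the start of Bcl11a, a transcription factor of blood and neurons, and of Fancl, a Fanconi anaemia protein. The stretch from 13 to 17 Mb averaged 1.86 and holds the start of Egfr, the receptor of epidermal growth factor. The stretch from 41 to 44 Mb averaged 1.66 and holds the start of Pttg1, described below. The longest, 108 to 114 Mb with 6 bins, averaged 1.28 and holds Axin2, an inhibitor and target of Wnt signalling, and Sox9. The stretches from 8 to 11, 46 to 49 and 64 to 67 Mb averaged 1.46, 1.26 and 1.46.

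In level, the lowest bin was 69 to 70 Mb, where the libraries ran from 42.5% to 50.2% around a mean of 45.6%. It holds 65 gene starts, among them Trp53, Aurkb, Kdm6b and Polr2a, and a median window length of 3494 bp. The next were 97 to 98 Mb at 47.0%, with 29 gene starts including the Polycomb gene Pcgf2, and 98 to 99 Mb at 49.5%, with 35 gene starts including Erbb2, Cdc6 and Rara. The highest bins were 36 to 37 Mb at 72.1% with no gene start, 34 to 35 Mb at 71.2% with 6, and 112 to 113 Mb at 71.0% with 1, Sox9. The lowest library of the bin at 36 to 37 Mb stood at 67.7% and the highest library of the bin at 69 to 70 Mb at 50.2%. Across the 114 bins the level went against the number of gene starts (Pearson r = -0.706, Spearman rho = -0.640). The phase difference went with the median window length (r = 0.709, rho = 0.675), against gene starts (r = -0.621, rho = -0.732), against GC content (r = -0.734, rho = -0.689) and with the level (r = 0.569, rho = 0.621). These are descriptions over bins of the same 6 libraries, and window length, GC content and gene starts vary together along the chromosome.

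**Figure D4:**
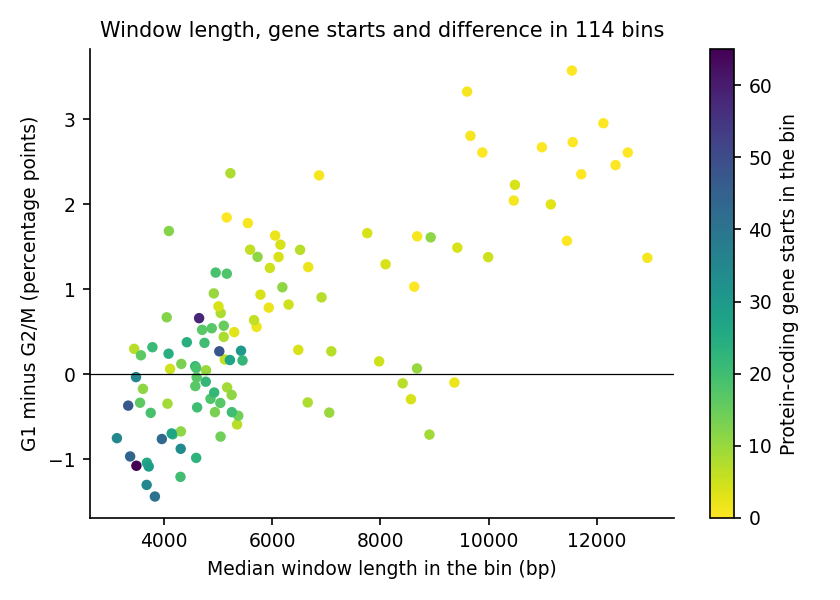
Mean matched G1 minus G2/M difference (percentage points) against the median window length (bp) in each of 114 bins of 1 Mb, coloured by the number of protein-coding gene starts. The bins with the longest windows have few gene starts and differences up to 3.57, and of the bins with the most gene starts, 69 to 70 Mb (65 starts) lies at -1.08 and 99 to 100 Mb (58 starts) at 0.658.

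Single windows were counted by a fit of the contrast that chose the chromosome, so the counts are no test of chromosome 11. The fit had no term for the replicate number. With such a term, 0 windows of chromosome 11 and 0 of the whole table passed adjustment. At an unadjusted limma p under 0.05 stood 1059 of 19170 windows of chromosome 11 and 17356 of all 359192. The logistic regression of the study was not repeated, since percentages without read depth do not allow it. With limma on log2 ratios over all 359192 windows and Benjamini-Hochberg adjustment, 0 of 19170 stood at an adjusted p under 0.05, against 0.00223% of all windows, and at an unadjusted p under 0.05 there were 507. Of these, 288 were higher in G1, or 1.5%, against 1.36% of all windows, and 219 were higher in G2/M, or 1.14%, against 0.75% of all. G1 made up 56.8% of them, and 35.3% of 1076 after centring on library medians. Over all windows of the table G1 was higher in 4873 of 7566 such windows, and in 7724 of 17615 after centring. The groups did not overlap in 657 windows with G1 on top, 3.43% against 4.12% of all windows, and in 469 with G2/M on top, 2.45% against 1.98%. All 3 matched pairs lay above 0 in 2695 windows, 14.1% against 16.3% of all, and below 0 in 2052, 10.7% against 9.74%. Nothing is read from these shares, since they come from the contrast by which the chromosome was chosen.

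The window with the largest excess in G1 among windows with non-overlapping groups and no library at 0% lies over the start of Pttg1, which encodes securin, the inhibitor of separase that is destroyed at anaphase. The window spans chr11:43424829-43426839 and holds 52 CpGs, and part of it is the 20-CpG run printed above. Its G1 libraries read 64.8%, 72.6% and 53.5% and its G2/M libraries 34.5%, 24.4% and 47.1%. The group means were 63.6% ± 9.61 and 35.3% ± 11.4 (SD, n = 3 each), and the matched differences of 30.3, 48.2 and 6.37 differed widely. A window inside Rai1 (chr11:60187270-60188759), a chromatin-associated regulator of transcription, read 62.5%, 35.3% and 44.0% in G1, against 10.8%, 34.4% and 16.7% in G2/M. The gap between its groups, from 34.4% to 35.3%, was below 1 percentage point. A window inside Sept8 (chr11:53520920-53524070), a septin of the cytoskeleton, read 69.5%, 63.9% and 77.3% in G1, against 40.1%, 47.0% and 46.9% in G2/M.

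The largest excess in G2/M lay at the start of Adam19, a membrane metalloproteinase, in the window chr11:46053368-46056191 with 54 CpGs. Its G1 libraries read 4.63%, 13.5% and 13.2% and its G2/M libraries 45.3%, 62.3% and 32.3%, and the group means were 10.4% ± 5.01 and 46.6% ± 15.1 (SD, n = 3 each). A window inside Sgsh (chr11:119352701-119355428), a lysosomal sulfatase, read 30.6%, 33.3% and 36.5% in G1, against 66.7%, 39.8% and 69.4% in G2/M. A window over Abhd15 and the start of Gm10392 (chr11:77516264-77519759) read 28.6%, 53.8% and 66.7% in G1, against 69.2%, 70.2% and 85.3% in G2/M. In each of these 6 windows the replicates within a phase spread over 5.92 to 38.0 percentage points.

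The windows that ranked first in that fit, 1 in each direction, were nearly unmethylated with little spread. At chr11:29547795-29548788, over the starts of Rps27a, a ubiquitin and ribosomal protein fusion, and of Clhc1, G1 read 1.75%, 2% and 1.09% and G2/M read 0% in all 3 libraries. At chr11:120948669-120949341 inside Slc16a3, the lactate transporter MCT4, G1 read 0% in all 3 libraries and G2/M read 4.55%, 2.50% and 4.41%. These differences are under 5 percentage points, and without read depth a percentage of 0 has no known upper limit.

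Promoters were then described through the window that holds the start of each protein-coding gene, leaving out windows over 60 kb. On chromosome 11, 1068 of 1639 protein-coding genes had such a window, or 65.2%, with a median level of 36.0%, against 73.1% and 45.0% on the other autosomes. Read 250 bases before to 50 after the start, the promoters of chromosome 11 held a median of 14 CG dinucleotides (a CpG reads CG on both strands) and those elsewhere 11. Promoters with 15 or more CpGs made up 49.2% of those on chromosome 11 and 43.4% elsewhere, and 49.4% of them lay in a window, with a median level of 9.45% (interquartile range 0.724% to 26.3%). Promoters with 5 to 14 CpGs had a window in 79.2% of cases and a median of 39.8%, and those with up to 4 CpGs in 81.7% and a median of 66.7%. CpG-rich promoters were thus less often in a window, and the promoter values given here hold 398 of the 806.

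Genes of the cell cycle and of genome maintenance had the lowest median of the 13 lists, 2.98% over the 7 of 11 genes with a window, against 36.0% for all genes of chromosome 11, and the difference was not tested. All 7 averaged under 20%, where 34.3% of all did and 68.1% of those with 15 or more CpGs. The lists were not matched for promoter CpGs. Rpa1, a subunit of the single-strand DNA binding protein RPA, averaged 0.208%, at 1.25% in G1 replicate 2 and 0% in the other 5 libraries. Brca1, which acts in repair by homologous recombination, averaged 0.231%, at 1.39% in G1 replicate 2 and 0% elsewhere. The highest, Top2a, the topoisomerase that untangles DNA before mitosis, read 3.03%, 10.7% and 17.4% in G1, against 21.7%, 14.8% and 33.3% in G2/M, so its groups overlapped while G2/M was higher in 3 of 3 pairs. Bodies of these genes were methylated, with a median of 56.7% over 11 genes.

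Chromatin regulators and developmental genes averaged under 20% in 57.1% and 61.5% of those with a window. The share was 34.3% over all promoter windows of chromosome 11 and 68.1% over those with 15 or more CpGs. Of 13 chromatin regulators, 7 had a window, 4 of them under 20% and 0 at 50% or more, from Kat7, a histone acetyltransferase, at 1.91% to H3f3b, which encodes histone H3.3, at 38.1%. Of 22 developmental transcription factors and Wnt ligands, 13 had a window, 8 under 20% and 2 at 50% or more. Ikzf3, a lymphoid transcription factor, read 0% in all 6 libraries, while Foxi1, a factor of ear and kidney ion-transporting cells, averaged 69.9% ± 13.0 (SD over 6 libraries). In the Hoxb cluster, the homeobox genes of the trunk axis, 8 of 10 had a window, 3 under 20%, 4 from 20% to 50% and 1 above. Hoxb7 was lowest at 3.97%, from 0.68% to 8% over the libraries. Hoxb3 was highest, at 36.9%, 46.4% and 62.0% in G1, against 60.7%, 57.8% and 81.0% in G2/M, with G2/M higher by 11.5 to 23.8 percentage points in 3 of 3 pairs and the groups overlapping.

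The genes of LIF and STAT signalling, which keeps mESCs in self-renewal, had a promoter window in 3 of 7 cases. Stat5a, a transcription factor activated by JAK kinases, averaged 18.7%, at 6.67%, 7.76% and 17.1% in G1, against 20.5%, 19.4% and 40.9% in G2/M, with no overlap between the groups. Osm, a cytokine of the LIF family, averaged 36.4%, from 28.2% to 42.5%, and Lif itself 52.0%, from 42.8% to 70.5%, and in both the groups overlapped. Stat3, the main transducer of LIF, Stat5b and Grb2, an adaptor of growth factor receptors, had no promoter window, and windows in their bodies averaged 63.1%, 70.0% and 49.3%. The 1 window centred in Socs3, the feedback inhibitor of STAT3, read 0% in all 6 libraries.

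Imprinted loci gave intermediate to high values. Zrsr1, a paternally expressed gene inside an intron of Commd1, read 8.01%, 13.9% and 48.3% in G1, against 51.3%, 39.1% and 24.6% in G2/M. Its promoter window varied more than any other named in the lists, with an SD of 18.1 over the 6 libraries, and the matched differences of -43.3, -25.2 and 23.7 had both signs. Commd1, a regulator of copper handling, averaged 22.8%, from 16.0% to 30.5%. Grb10, a growth-limiting adaptor of the insulin receptor, averaged 65.1%, from 57.9% to 69.5%, and its neighbour Ddc, the aromatic amino acid decarboxylase, 78.1%, from 67.7% to 83.9%. The differentially methylated regions of these loci were not located here.

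Clusters of tissue-specific genes were mostly highly methylated. All 11 chemokine genes averaged 50% or more, where 38.8% of all promoter windows of chromosome 11 did, from Ccl9 at 58.6% to Ccl5, an attractant of T cells, at 76.3%. Among promoters with up to 4 CpGs and a window, 83.4% did. These shares are also the background of the keratin and olfactory receptor counts below. The 6 myosin heavy chain genes of muscle lay in order at 58.9% for Myh3, 70.9% for Myh1, 73.8% for Myh13, 74.4% for Myh8, 75.5% for Myh4 and 78.9% for Myh2. Neighbours in this order lay closer together than the larger of their SDs over the 6 libraries, which ran from 2.59 to 13.3. Myh4, the fast type IIb myosin, was higher in G1 in 3 of 3 pairs, by 5.01, 10.2 and 21.6, while Myh1, at -7.41, -4.18 and -14.6, and Myh13, at -3.61, -5.00 and -3.17, were lower in 3 of 3. Of 50 keratin and keratin-associated genes, 27 and 23, 47 averaged 50% or more. Krt17, a keratin of injured and embryonic epithelium, was lowest at 28.6% and read 16.0%, 11.5% and 33.3% in G1, against 32.7%, 27.3% and 51.0% in G2/M, higher in G2/M in 3 of 3 pairs while the groups overlapped. Krt35, a hair keratin, was highest at 80.2%.

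Of 82 olfactory receptor genes, 43 had a window, on 40 distinct windows since neighbours can share one, and 42 of these averaged 50% or more, from Olfr311 at 41.0% to Olfr1387 at 79.8%. Germline genes ran from Tex19.1 at 41.5% to Spem1 at 67.2%, with 6 of 9 in a window and 0 under 20%. At the type 2 cytokine locus the 5 cytokine genes Il3, Il4, Il5, Il13 and Csf2 averaged 64.3% to 74.7%. Of the genes beside them, Irf1, an interferon-responsive factor, Kif3a, a motor of cilia, and Rad50, a repair protein, averaged 16.1%, 30.1% and 34.5%. At the alpha-globin locus Mpg, a DNA glycosylase, averaged 18.4% and Nprl3, a regulator of TORC1, 30.3%. The globin genes Hba-x and Hba-a2 averaged 54.6% and 62.7%, Hbq1a 35.2%, and the window shared by Hba-a1 and Hbq1b 25%. Hba-a1 and Hba-a2 are near-identical copies, as are Hbq1a and Hbq1b, so reads may have been placed unevenly between copies and these values are uncertain.

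**Figure D5:**
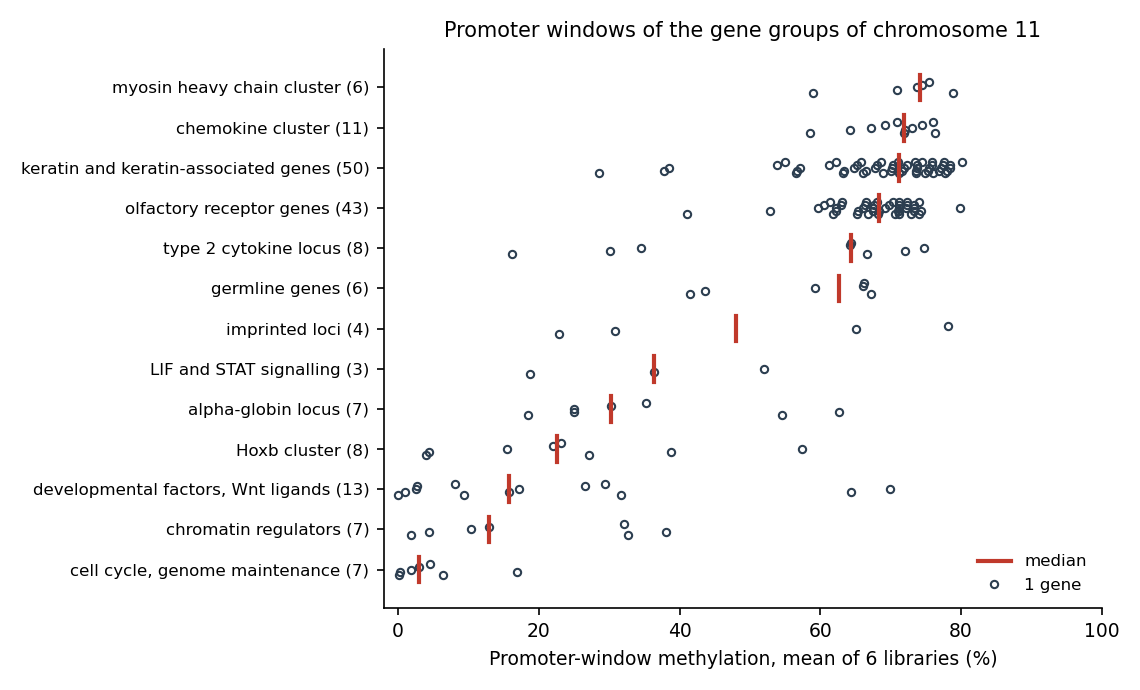
Methylation of the window that holds the gene start (%, mean of 6 libraries) for each gene of 13 groups on chromosome 11, with the number of genes that have a window in brackets and a red bar at the median. Cell cycle genes lie below 20% and chemokine and myosin genes above 50%. The Hoxb and alpha-globin genes lie between and on both sides, and the imprinted genes between and above 50%.

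In phase difference the promoter windows of the groups had no shared direction. Over the 1068 genes of chromosome 11, 111 were higher in G1 in 3 of 3 pairs, 10.4% against 12.5% over all autosomes, and 134 were lower, 12.5% against 9.62%, and the median difference was 0. The group medians ran from -6.10 for the 4 imprinted genes to 2.99 for chromatin regulators. Among chemokine genes, with a median of 2.66, 4 of 11 were higher in G1 in 3 of 3 pairs and 1 lower. Among keratin and keratin-associated genes 9 of 50 were higher and 5 lower. These shares are descriptions on the contrast by which the chromosome was chosen.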

How the data were processed

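The libraries were EM-seq (125 ng DNA, 75-bp paired-end reads) of sorted G1 and G2/M cells, 3 per group. The authors trimmed reads with Trim Galore 0.6.4, mapped them to GRCm38/mm10 with Bismark 0.22.1 and bowtie2, removed duplicates, mapping quality under 20 and outlier regions, and deposited the percent CpG methylation of 100-CpG windows with at least 1 in 5 CpGs observed in all libraries. No scaling between libraries was stated, and depth is unknown, so a percentage carries no counting interval.

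The members and gene lists were chosen with earlier results of these data known. Percentages were averaged over windows per library. G1 minus G2/M used libraries of the same number, which the labels give and which the study treats as matched. Same-numbered means on chromosome 11 lay 0.0368 to 0.565 percentage points apart, within ranges of 8.59 and 8.24 between replicates. Their window by window deviations from the group means on chromosome 11 correlated at 0.0243, 0.0330 and 0.0552, and those of different numbers at -0.0328 to -0.00146, so the pairing appeared in library means and hardly in single windows. Nothing in the labels names a shared culture, and the p-values measure only the spread between these libraries. Levels were tested by exact sign-flip over libraries (Python 3.11.15, SciPy 1.17.1). Windows were tested with limma 3.58.1 (R 4.3.3, eBayes with trend, log2 of (percent + 1)/(100 - percent + 1)) on all windows of the table. The fit was first run on simulated data with independent noise per window and library, without the shared shifts between the real libraries. Genes came from GENCODE vM21 and promoter sequences from RefSeq, both on GRCm38. Described singly were, in each gene list, the lowest and the highest promoter window and all members of lists of up to 7, the 3 windows with the largest difference in each direction among those with non-overlapping groups and no 0%, 1 window per direction by smallest limma p, and the 3 highest and lowest 1-Mb bins with 50 or more windows. Windows over 60 kb were left out of gene values, a choice made after seeing the data. Other genes are named as the gene starts of those bins and stretches, chosen after their values were seen, as were Brca1 and the further genes of the type 2 cytokine locus. Alternatives were other averages, filters on level, length and 0%, centring, weighting by length class, other bins, other limma settings, a replicate block and leaving out libraries. Chromosomes X and Y were not ranked.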

Additional observations from a re-analysis of the deposited data

How the results depend on the processing

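Chromosome 11 had the smallest mean phase difference of the 19 autosomes under all 6 other averages and filters run with all libraries (0.319 to 0.550 percentage points, next lowest autosome 0.626 to 0.819 at each setting), one of them, without windows over 60 kb, chosen after seeing the data. With libraries centred on their autosomal medians the difference was -0.706. Leaving out libraries gave -2.19 to 2.82, negative without G1 replicate 3 (-2.19), also without replicate 1 (-0.528) or replicate 2 (-1.30) of G2/M. The groups then hold different replicate numbers. Leaving out both libraries of a number kept it above 0. The lower level of chromosome 11 and the higher level of its long windows kept their direction in all settings. The first ran from -2.47 to -0.912 and the second from 6.31 to 17.9 over the other averages and filters, all at p = 0.03125 in the exact sign-flip test. With the replicate block the values were -2.46 and 13.1, at p = 0.25 in the exact test, the smallest that 3 values allow, and leaving out libraries gave -2.53 to -2.35 and 12.8 to 13.5, at exact p = 0.0625 to 0.125, the smallest that 5 and 4 libraries allow. The count of windows with a limma adjusted p under 0.05 was 0 in the other settings with 6 libraries, the replicate block included, and 1 to 4 without 1 library, 4 of them without G1 replicate 3. Over all windows of the table these counts were 0 or 1 with 6 libraries and 26 to 46 without 1 library. Unadjusted, the count on chromosome 11 was 507, 1059 with the replicate block, 1076 after centring, and 373 to 799 without 1 library. Over all windows it was, in the same order, 7566, 17356, 17615 and 5344 to 13499. The shares of bins with all pairs above and below 0 were 47.5% and 13.6% in 2-Mb bins and 43.2% and 14.4% over all 118 bins. Without read depth, no value of a single window can be given a counting error.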
